A study of Homo sapiens with 3 samples.

Results

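The genes described here encode the ATPase p97 (VCP) and 9 proteins that work with it when misfolded proteins are pulled out of the endoplasmic reticulum (ER), stripped of their sugars and handed to the proteasome. They are VCP, NPLOC4, FAF1, FAF2, UBXN4, UBXN6, NSFL1C, YOD1, NGLY1 and RAD23B. They were chosen by name and role, and each name matched 1 row of the 58243 genes in each library. RNA was sequenced from cultures of LoVo, a human line from a colorectal carcinoma according to its label. Every culture held a Tet-On hairpin, switched on by doxycycline, against HRD1, the ER ubiquitin ligase encoded by SYVN1. Doxycycline was given at 1 µg/ml for 0, 3 or 5 days. There was 1 library per time and none from cells without the hairpin was analysed here, so effects of doxycycline and of the knockdown cannot be told apart. There are no replicates and hence no p-values, and each ratio compares libraries. In bulk RNA, fewer cells of a type and less RNA per cell cannot be told apart.

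ER-associated degradation moves a misfolded protein through the ER membrane while HRD1 attaches ubiquitin to it. p97 then grips the ubiquitin chain through its cofactors and uses ATP to draw the protein into the cytosol. There a peptide:N-glycanase removes N-glycans, deubiquitinases trim the chain and shuttle proteins carry the substrate to the proteasome. Many cofactors share a UBX domain, a fold that resembles ubiquitin and binds p97.

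The libraries held 21308785, 22068686 and 25754188 gene reads at day 0, day 3 and day 5. For SYVN1 the reads numbered 1212, 650 and 709, and the log2 ratios were -0.88 at day 3 and -1.05 at day 5 over day 0. Markers of the labelled colon epithelial identity were mixed, with some keratins and claudins present and most other listed markers near 0. EPCAM stood at 0.724, 0.742 and 0.656 TPM (transcripts scaled by length and depth) at day 0, day 3 and day 5, and CDH1 had 3, 2 and 10 reads. CDX1 and CDX2 had no read in any library, and VIL1, CEACAM5, CEACAM6, CDH17, KRT20 and LGALS4 had at most 16 reads in each. Of 16 epithelial and colon markers, 6, 5 and 6 reached 1 TPM. The identity of the line was not tested. Those present included the keratins KRT18 (728, 738 and 727 TPM), KRT8 (465, 483 and 415 TPM) and KRT19 (137, 194 and 154 TPM) and the claudin CLDN4 (72.7, 88.6 and 73.5 TPM). Of 11 mesenchymal markers 7 reached 1 TPM in each library, led by VIM with 4016, 4130 and 3588 TPM, while CDH2, TWIST1, COL1A2 and COL3A1 stayed below 1 TPM. Of 11 liver and blood markers, 0, 1 and 7 reached 1 TPM at day 0, day 3 and day 5, and their summed level was 0.409, 3.76 and 36.6 TPM. At day 0, 6 of the 11 had no read, and at day 3 ALB and HBA1 had none, while at day 5 each had at least 1 read. The part of these reads in the day 5 results below was not tested.

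Because the promoter of an ER stress gene often holds an element read by XBP1 or ATF6, the RefSeq start-site windows of the 10 genes (GRCh38.p14) were searched on both strands. The window of VCP held TGACGTGG, the unfolded protein response element, which is in 0.729% of 35116 windows of 300 bases. That share is per window, whereas 14 windows of the 10 genes were each searched for several elements. UBXN4 has the shorter core TGACGTG, chosen after its sequence was seen, and 1.97% of windows hold that core. These stretches are shown because p97 and the ER membrane protein UBXN4 were the genes with these letters, and because VCP and UBXN4 differed in opposite directions at day 5. Capitals mark the core, which begins 189 bases before the start site in VCP and 125 bases before it in UBXN4. Each stretch is the 250 bases before the start site, written 5′ to 3′ on the gene's strand, at chr9:35072626-35072875 (minus strand) for VCP and chr2:135741605-135741854 (plus strand) for UBXN4.
VCP: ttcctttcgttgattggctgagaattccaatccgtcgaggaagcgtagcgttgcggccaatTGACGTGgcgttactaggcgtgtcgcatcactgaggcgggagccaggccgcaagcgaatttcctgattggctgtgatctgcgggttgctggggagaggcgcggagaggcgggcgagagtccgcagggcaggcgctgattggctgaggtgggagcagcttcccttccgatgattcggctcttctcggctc
UBXN4: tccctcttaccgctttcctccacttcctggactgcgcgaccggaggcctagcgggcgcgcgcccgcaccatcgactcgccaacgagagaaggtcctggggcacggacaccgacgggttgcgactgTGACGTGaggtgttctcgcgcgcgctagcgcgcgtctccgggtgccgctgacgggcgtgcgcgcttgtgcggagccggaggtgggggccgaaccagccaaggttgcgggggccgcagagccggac

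No window searched for the 10 genes held the ER stress elements ERSE or ERSE-II, the ATF4-type element TGATGNAAT or the proteasome gene element TGACTCAGC. The looser antioxidant-type TGACNNNGC was in the windows of VCP, where it overlaps the element above, FAF2 and YOD1, and 13.3% of all windows hold it. The VCP window also held CCAAT 5 times counting both strands, and 0.359% of windows hold it as often. This count was made after the sequence was seen. The start sites of the NPLOC4 windows lie 71032 and 81863 bases inside the gene as deposited. Those of NSFL1C, UBXN6, YOD1, FAF2, VCP and UBXN4 lie 6993, 2521, 1772, 757, 624 and 236 bases inside. The sequence upstream of these genes as deposited was therefore not searched, apart from a few bases for UBXN4. The printed VCP stretch lies wholly within the deposited gene, and the UBXN4 stretch nearly so. A match is a description of letters and not of binding.

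By level per length, the genes formed a steep order with VCP at the top and NGLY1 at the bottom. VCP had 622, 608 and 532 TPM at day 0, day 3 and day 5, which was rank 212, 224 and 270 among protein-coding genes. RAD23B, the shuttle protein, came next with 470, 450 and 502 TPM. VCP therefore stood at 1.32, 1.35 and 1.06 times the RAD23B level at the 3 times. UBXN6 (144, 154 and 135 TPM) and NPLOC4 (134, 117 and 118 TPM) followed, then FAF2 (95.7, 81.2 and 99.0 TPM). The lower levels were those of NSFL1C (72.2, 73.9 and 78.0 TPM), UBXN4 (66.6, 56.5 and 73.8 TPM) and FAF1 (32.6, 31.1 and 31.6 TPM). YOD1 (20.03, 16.5 and 24.1 TPM) and NGLY1 (15.9, 16.3 and 18.1 TPM) were lowest. The YOD1 level rests mostly on reads that were not uniquely placed. Its uniquely placed reads numbered 72, 45 and 39, against 743, 781 and 1017 for NGLY1, so its place above NGLY1 is uncertain. By TPM the order of the 10 genes was the same at each time. The counting intervals of neighbours overlapped only for NSFL1C and UBXN4 at day 0 and day 5 and for YOD1 and NGLY1 at day 3. Together the 10 genes summed to 1672, 1605 and 1611 TPM, of which VCP held 37.2%, 37.9% and 33.0%. The authors' TPM divides exon reads by the length of all annotated exons, so genes with long, rarely used exons are placed low.

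**Figure D1:**
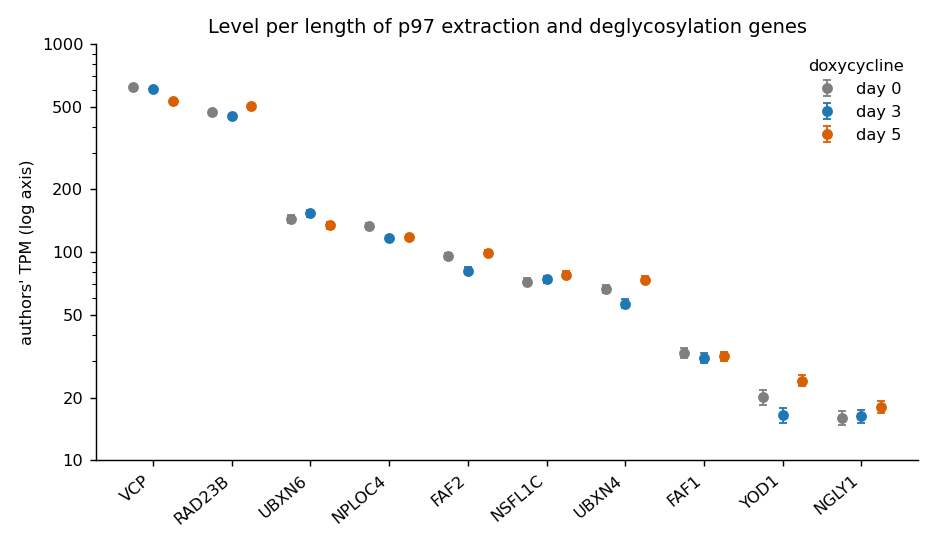
Level per length (authors' TPM, log axis) of the 10 genes at day 0, day 3 and day 5, with bars for 95% exact Poisson intervals of the exon reads. Each gene's 3 points lie close together beside the distance between genes, from VCP at 622, 608 and 532 TPM to NGLY1 at 15.9, 16.3 and 18.1 TPM. Most YOD1 reads were not uniquely placed, so its place above NGLY1 is uncertain.

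For day 3 over day 0, the question was whether transcripts of the extraction machinery differed early after HRD1 knockdown. They differed little. None of the 10 was at least 1.2-fold higher or lower with a 95% interval excluding 1. Of the 12593 genes that averaged 50 reads or more, 9.98% were higher and 10.7% lower by that measure, so a count of 0 among 10 is close to the background. The interval lay wholly above 0 for 4 of the 10 (VCP, UBXN6, NSFL1C and RAD23B) and wholly below it for 3 (NPLOC4, FAF2 and UBXN4), against 25.2% and 20.8% of compared genes. The median log2 ratio was 0.04 over the 10 genes and 0.01 over all compared genes. The ratios ran from -0.15 for YOD1 to 0.16 for UBXN6. HSPA5, which encodes the ER chaperone BiP, had a log2 ratio of 0.72 between the same libraries. Square brackets below give exact 95% intervals of log2 ratios, which cover counting error only. Normalised CPM are read counts scaled to a common depth with TMM factors.

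For day 5 over day 0, YOD1 was the only one of the 10 at least 1.2-fold higher, and none was lower by that measure, where 9.4% of compared genes were higher and 7.82% lower. The YOD1 call is uncertain, as described below, and without YOD1 there was none. The median log2 ratio was 0.08 over the 10 genes and 0.01 over all compared genes. The interval lay above 0 for 5 genes (UBXN4, NSFL1C, YOD1, NGLY1 and RAD23B) and below 0 for 3 (VCP, NPLOC4 and UBXN6), against 22.8% and 22.4% of compared genes. For day 5 over day 3, YOD1 and UBXN4 were higher and VCP and UBXN6 lower, 2 in each direction. Of all compared genes, 12.4% were higher and 10.9% lower. None of these 4 calls held with exon length and GC trends removed. With library totals VCP (-0.24) and UBXN6 (-0.20) missed the threshold, with DESeq2 size factors UBXN4 (0.25) missed it, and YOD1 turned to -0.48 with uniquely placed reads. The interval lay above 0 for 4 of the 10 (FAF2, UBXN4, YOD1 and RAD23B) and below 0 for 3 (VCP, NPLOC4 and UBXN6), against 24.0% and 26.1% of compared genes. No gene of the 10 reached 1.5-fold in any comparison. Of compared genes, 1.29% were higher and 2.53% lower by 1.5-fold at day 3 over day 0, 1.75% and 1.28% at day 5 over day 0, and 2.28% and 0.969% at day 5 over day 3. The 3 comparisons share libraries, so they are not independent of each other.

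**Figure D2:**
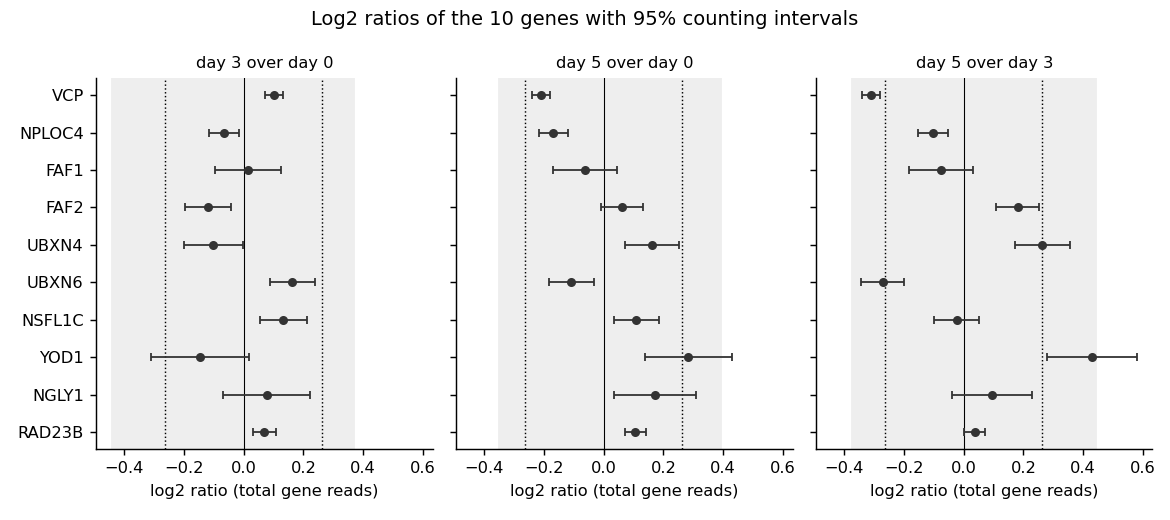
Log2 ratios of total gene reads for the 10 genes (rows) in the 3 comparisons (panels), with bars for 95% exact counting intervals, dotted lines at 1.2-fold and grey bands for the middle 90% of all compared genes. All 10 points lie inside the dotted lines for day 3 over day 0, and VCP lies at 0.10 there and at -0.21 for day 5 over day 0.

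VCP (ENSG00000165280, GRCh38 chromosome 9, positions 35056064 to 35073249, minus strand) encodes the ATPase itself. Its reads numbered 16772, 17773 and 17608 at day 0, day 3 and day 5, which were 776, 832 and 671 normalised CPM. The day 3 library was thus the highest and the day 5 library the lowest. Its log2 ratio was 0.10 [0.07 to 0.13] at day 3 over day 0 and -0.21 [-0.24 to -0.18] at day 5 over day 0. For day 5 over day 3 it was -0.31 [-0.34 to -0.28], and 8.51% of compared genes had a lower one. All of its reads were uniquely placed, and no annotated GENCODE 29 gene overlaps it. The day 3 ratio turned with the authors' TPM, which gave -0.03, whereas the day 5 over day 0 ratio stayed between -0.30 and -0.15 under the alternatives tried.

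NPLOC4 (ENSG00000182446, GRCh38 chromosome 17, positions 81556887 to 81648465, minus strand) encodes NPL4, which with UFD1 links p97 to its substrates. It had 6484, 6120 and 7010 reads, or 300.1, 287 and 267 normalised CPM at day 0, day 3 and day 5. Both doxycycline libraries were below the day 0 library. The log2 ratio was -0.07 [-0.12 to -0.02] at day 3 and -0.17 [-0.22 to -0.12] at day 5 over day 0. With exon length and GC trends removed the day 3 ratio was 0.03. UFD1, its partner, had 1429, 1541 and 1819 reads, at log2 ratios of 0.13 [0.02 to 0.23] for day 3 and 0.07 [-0.03 to 0.17] at day 5 over day 0. The level of VCP per length was 4.64, 5.20 and 4.52 times that of NPLOC4 at day 0, day 3 and day 5, and 19.0, 18.7 and 15.6 times that of UFD1. These multiples depend on the annotated exon lengths, which are 5438 bases for VCP, 9574 for NPLOC4 and 8736 for UFD1.

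FAF2 and UBXN4 sit in the ER membrane and recruit p97 to it. FAF2 (also called UBXD8, ENSG00000113194, chromosome 5, positions 176447628 to 176510074, plus strand) had 133, 123 and 139 normalised CPM at day 0, day 3 and day 5. Its log2 ratio was -0.12 [-0.20 to -0.04] at day 3 and 0.06 [-0.01 to 0.13] at day 5 over day 0. UBXN4 (erasin, ENSG00000144224, chromosome 2, positions 135741619 to 135785055, plus strand) had 80.6, 75.2 and 90.2 normalised CPM. It was lowest at day 3 and highest at day 5, with a log2 ratio of -0.10 [-0.20 to -0.00] at day 3 and 0.16 [0.07 to 0.25] at day 5 over day 0. For day 5 over day 3 FAF2 had 0.18 [0.11 to 0.25] and UBXN4 had 0.26 [0.17 to 0.36], the last lying at the 1.2-fold threshold. With the trends on length and GC content removed UBXN4 had 0.16 there.

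The other UBX proteins are soluble. FAF1 (ENSG00000185104, chromosome 1, positions 50437028 to 50960263, minus strand), which binds ubiquitin chains and p97, had 61.3, 61.9 and 58.7 normalised CPM at day 0, day 3 and day 5. Its ratios of 0.01 [-0.10 to 0.13] at day 3 and -0.06 [-0.17 to 0.05] at day 5 over day 0 were not detectable differences at this depth. NSFL1C (ENSG00000088833, chromosome 20, positions 1442162 to 1473842, minus strand) encodes p47, a cofactor of membrane fusion at the Golgi, and had 115, 126 and 124 normalised CPM. Both doxycycline libraries were above day 0, at log2 ratios of 0.13 [0.05 to 0.21] for day 3 and 0.11 [0.03 to 0.18] at day 5. UBXN6 (UBXD1, ENSG00000167671, chromosome 19, positions 4444999 to 4457822, minus strand) had 129, 144 and 119 normalised CPM and was highest at day 3. Its log2 ratio was 0.16 [0.09 to 0.24] at day 3 and -0.11 [-0.18 to -0.03] at day 5 over day 0, and for day 5 over day 3 it was -0.27 [-0.34 to -0.20]. Of the 10 genes UBXN6 has the shortest exon length (3401 bases) and the highest transcript GC content (63.6%), and with both trends removed the last ratio was -0.06 and that of day 5 over day 0 was 0.01.

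NGLY1 (ENSG00000151092, GRCh38 chromosome 3, positions 25718944 to 25790039, minus strand) is the cytosolic N-glycanase that takes glycans off extracted proteins. It had 758, 790 and 1037 reads, or 35.1, 37.0 and 39.5 normalised CPM at day 0, day 3 and day 5. The difference at day 3 was not detectable, at 0.08 [-0.07 to 0.22], and the day 5 ratio was 0.17 [0.03 to 0.31] from all reads and 0.04 with the trends removed. OXSM, on the opposite strand, shares 536 exonic bases with NGLY1, and 98.02%, 98.9% and 98.1% of NGLY1 reads were uniquely placed. RAD23B (ENSG00000119318, chromosome 9, positions 107283137 to 107332194, plus strand), the shuttle protein that binds both NGLY1 and the proteasome, had 11033, 11440 and 14431 reads, or 511, 536 and 550 normalised CPM. Both doxycycline libraries were above day 0, at log2 ratios of 0.07 [0.03 to 0.11] for day 3 and 0.11 [0.07 to 0.14] at day 5. With the authors' TPM the day 3 ratio of RAD23B was -0.06, and with library totals it was 0.002 [-0.04 to 0.04]. With the trends removed its day 5 ratio was 0.02. NFE2L1, a transcription factor of proteasome genes that p97 and NGLY1 release from the ER, had log2 ratios of 0.08 [0.04 to 0.13] at day 3 and -0.08 [-0.13 to -0.04] at day 5 over day 0.

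YOD1 is a deubiquitinase that trims ubiquitin chains on p97 substrates, and its reads gave opposite answers by class. It had 649, 580 and 960 total gene reads at day 0, day 3 and day 5, or 30.04, 27.2 and 36.6 normalised CPM, with the day 5 library highest. Only 72, 45 and 39 of those reads were uniquely placed, which is 11.1%, 7.76% and 4.06%. The log2 ratio at day 5 over day 0 was 0.28 [0.14 to 0.43] from all reads and -1.14 [-1.75 to -0.57] from uniquely placed reads. At day 3 it was -0.15 [-0.31 to 0.02] from all reads and -0.66 [-1.24 to -0.11] from uniquely placed reads. The reads of YOD1 that cross an exon junction numbered 72, 48 and 39, and gave -0.60 [-1.16 to -0.06] at day 3 and -1.17 [-1.78 to -0.59] at day 5. These counts nearly equal those of the uniquely placed reads. The 2 classes may largely be the same reads, so they are not independent results. For day 5 over day 3 all reads gave 0.43 [0.28 to 0.58] and uniquely placed reads -0.48 [-1.14 to 0.17]. Total reads of YOD1 were thus highest at day 5, and its unique and junction reads highest at day 0.

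YOD1 (ENSG00000180667, chromosome 1, positions 207043849 to 207052980, minus strand) lies wholly within PFKFB2, a phosphofructokinase gene on the opposite strand, and shares 315 exonic bases with it. For PFKFB2 there were 304, 331 and 468 reads at the 3 times, of which 301, 325 and 462 were uniquely placed. Its log2 ratio at day 5 over day 0 was 0.34 [0.13 to 0.55]. Few of the reads counted for PFKFB2 were non-unique, whereas most of those counted for YOD1 were. No source used here states that counting took account of strand, so reads of the 2 genes cannot be told apart where they overlap. The tables do not say where else the non-unique reads of YOD1 matched, and no direction is drawn for YOD1.

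**Figure D3:**
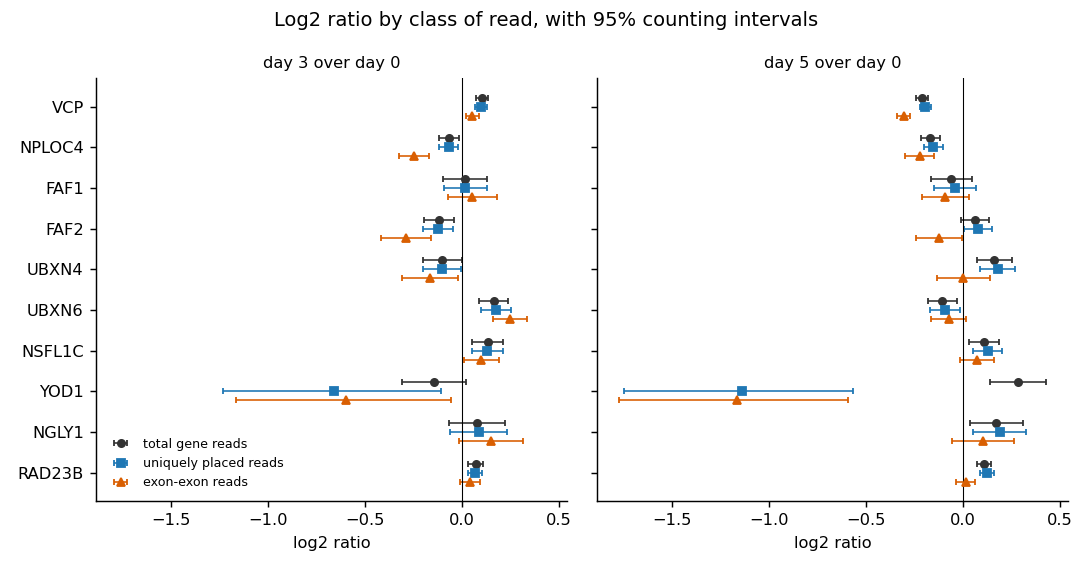
Log2 ratios at day 3 and day 5 over day 0 (panels) for the 10 genes, from total gene reads, uniquely placed reads and reads across exon junctions, with bars for 95% exact counting intervals. For YOD1 at day 5, total reads gave 0.28 while uniquely placed reads gave -1.14 and junction reads -1.17, and for the other 9 genes total and unique reads nearly coincide.

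Junction-crossing reads also bear on the rest. For NPLOC4 at day 3 they gave -0.25 [-0.33 to -0.17] against -0.07 from all reads, and for FAF2 -0.29 [-0.42 to -0.16] against -0.12. For VCP at day 5 they gave -0.30 [-0.34 to -0.27] against -0.21. At day 5 over day 0 the sign for FAF2 also depended on the class, with -0.12 from junction reads against 0.06 from all reads, while UBXN4 had 0.00 and RAD23B 0.01 from junction reads. The share of exon reads that cross a junction in VCP was 84.9% [84.4 to 85.5], 84.2% [83.7 to 84.7] and 80.1% [79.5 to 80.7] at day 0, day 3 and day 5. The share was lower at day 5 than at day 0 in 9 of the 10 genes, UBXN6 being the exception, and lower at day 5 than at day 3 in 9 of the 10, NPLOC4 being the exception. Of all compared genes with junction reads, 76.1% were lower at day 5 than at day 0 and 71.5% lower at day 5 than at day 3, so 9 of 10 is not far above the background. At day 3 the share was below day 0 in 6 of the 10 genes and 53.9% of all, and at day 5 junction reads of all compared genes had a median log2 ratio of -0.09 over day 0.

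Intron reads, which come from unspliced RNA or overlapping transcripts, took a smaller share of gene reads at day 3 than at day 0 in 8 of the 10 genes, and in 72.2% of compared genes. For day 5 the share was lower than at day 0 in 7 of the 10 genes and 52.5% of all, and lower than at day 3 in 3 of the 10 and 28.1% of all. NGLY1 had 13.6% [11.2 to 16.2], 8.10% [6.29 to 10.2] and 12.2% [10.2 to 14.3] intron reads at day 0, day 3 and day 5. In FAF1, the gene with the longest span, the shares were 8.16% [6.74 to 9.76], 4.92% [3.81 to 6.22] and 6.29% [5.13 to 7.62]. UBXN6 had 12.9%, 9.02% and 11.4%, and NSFL1C had 6.36%, 4.12% and 5.34%. In each of these 4 genes the day 3 interval lies below the day 0 interval. The shares of UBXN4 and YOD1 were within counting error of each other, at 3.68% at day 3 and 3.56% at day 0 in UBXN4 and 0.862% at day 3 and 0.616% at day 0 in YOD1. Over whole libraries intron reads were 6.01%, 5.59% and 6.68% of gene reads.

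**Figure D4:**
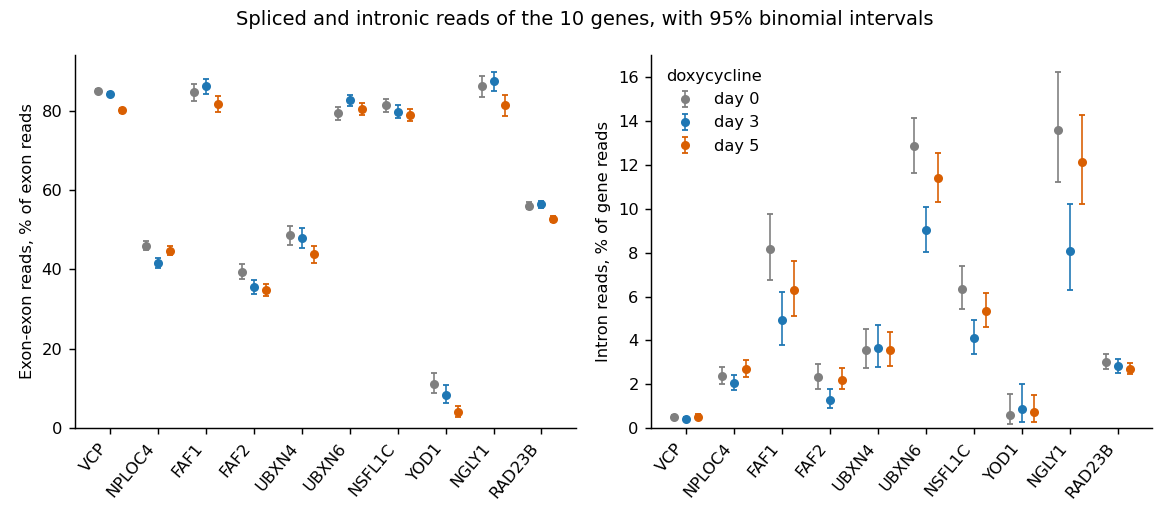
Reads across exon junctions as a percentage of exon reads (left) and intron reads as a percentage of gene reads (right) for the 10 genes at day 0, day 3 and day 5, with bars for 95% exact binomial intervals. The intron share of NGLY1, FAF1, UBXN6 and NSFL1C is lowest at day 3, and the junction share of VCP is 80.1% at day 5 against 84.9% at day 0.

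The libraries differed by transcript composition, and the 10 genes differ in it too. Taken across 12487 genes, whose values are not independent of each other, Spearman's rho between transcript GC content and the log2 ratio of day 5 over day 3 was -0.53. Leaving YOD1 (36.0%) aside, the 3 genes of lowest GC content, NGLY1 (36.2%), UBXN4 (40.6%) and RAD23B (42.5%), had ratios above 0 in that comparison. The interval of NGLY1 spanned 0, at 0.09 [-0.04 to 0.23], and RAD23B had only 0.04 [0.00 to 0.07]. The 3 of highest GC content, UBXN6 (63.6%), VCP (52.0%) and NPLOC4 (50.9%), had ratios below 0. The genes between did not follow the order of GC content, with FAF1 (45.3%) at -0.08, FAF2 (46.1%) at 0.18 and NSFL1C (47.2%) at -0.02. With smooth trends on GC content and length of exons removed, VCP still had -0.24 for day 5 over day 3 and -0.15 for day 5 over day 0, and none of the 10 was past 1.2-fold in any comparison. The part of GC content in these ratios was not otherwise tested.

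**Figure D5:**
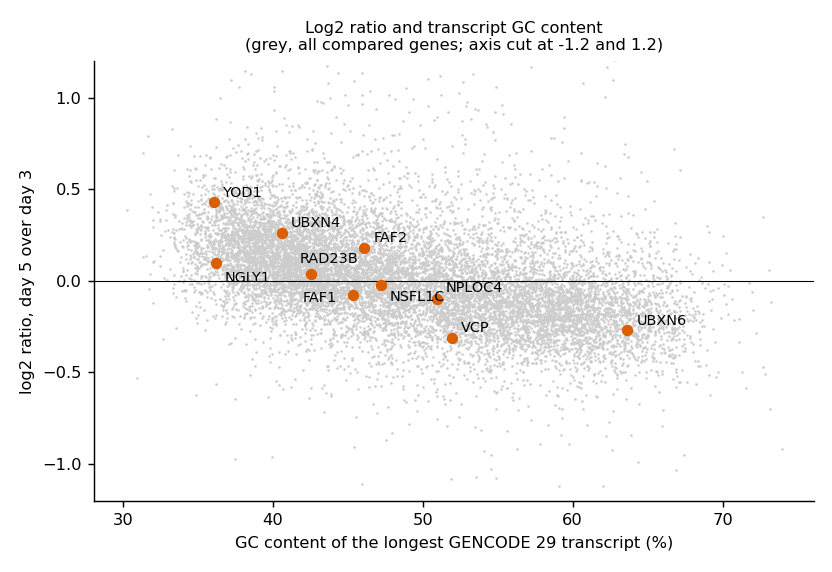
Log2 ratio of day 5 over day 3 from total gene reads against the GC content of the longest GENCODE 29 transcript, for the 10 genes (orange) and all compared genes with a GC value (grey, of which 47 lie beyond the axis limits of 1.2 either way). UBXN4 at 40.6% GC lies above 0, UBXN6 at 63.6% lies below and VCP at 52.0% has -0.31. The YOD1 point is from total reads, and its uniquely placed reads gave -0.48.

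Counts among other p97 cofactors and substrate handlers were near the background at day 3. Of 46 symbols listed 42 were in the files and 39 were compared, and UBXN10 and DDI1 had no read. The symbols not found (UFD1L, VIMP, VCF1 and VCF2) are other names of genes that were found, so no listed gene was missing. At day 3, 3 of 39 were at least 1.2-fold higher and 4 lower, against 9.98% and 10.7% of all compared genes, and their median log2 ratio was 0.05. SELENOS, which anchors p97 to the derlins, had 0.28 [0.17 to 0.39]. UBXN8, a UBX protein of the ER membrane, had 0.42 [0.15 to 0.70], and ZFAND2A, a stress-induced proteasome partner, had 0.36 [0.15 to 0.58]. Those lower were UBXN7, a cofactor of cullin ligases, at -0.37 [-0.51 to -0.24], UBXN2A at -0.33 [-0.49 to -0.18], the p97-binding deubiquitinase VCPIP1 at -0.29 [-0.45 to -0.13] and the ER rhomboid protease RHBDD1 at -0.28 [-0.47 to -0.08]. The 4 lower genes have exon lengths of 6882 to 11291 bases and the 3 higher ones of 2281 to 3766, as seen after the calls were made. Over all compared genes Spearman's rho between exon length and the day 3 ratio was -0.38. The part of exon length in these calls was not tested.

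At day 5 over day 0, 3 of the 39 were higher and none lower by 1.2-fold, against 9.4% and 7.82% of all compared genes, and their median log2 ratio was 0.01. VCPKMT, the methyltransferase of p97, had 202 reads at day 0, 200 at day 3 and 341 at day 5 and a log2 ratio of 0.47 [0.22 to 0.73]. SVIP, a small inhibitor of p97 in ER-associated degradation, had 104, 108 and 169 reads and a ratio of 0.42 [0.06 to 0.79]. UBXN8 had 0.29 [0.03 to 0.56] from all reads, but 0.19 [-0.09 to 0.47] from exon reads and -0.03 from junction reads, and its intron reads numbered 37 at day 5 and 13 at day 0. DERL2, a derlin of the retrotranslocation channel, had 0.19 [0.05 to 0.34]. For day 5 over day 3, 6 were higher and 4 lower, against 12.4% and 10.9% of all compared genes. The largest ratios were those of FAM104B, a p97-binding protein, at 0.87 [0.32 to 1.46], from 88 reads at day 5 and 39 at day 3, UBXN2A at 0.50 [0.35 to 0.64] and VCPKMT at 0.47 [0.22 to 0.73]. DDI2, the protease that cuts NFE2L1, had 0.38 [0.26 to 0.51].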

How the data were processed

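RNAiso Plus was used for RNA extraction and a SMARTer kit for the libraries, per the labels' protocols. The deposited tables give, per the file headers, read counts per gene (total, uniquely placed, exon, exon-exon and intron reads) and the authors' TPM. In the deposited values of day 0 the TPM is proportional to exon reads over exon length. No aligner is named in the sources used here. Submitters' processing notes name mm10, a mouse build, but 57980 of the 58243 identifiers are in GENCODE 29 and 56588 have its GRCh38 start and end. The whole-series table, with 3 sample columns, was not used.

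Total gene reads were scaled with TMM factors (1.01, 0.968 and 1.02) in edgeR 4.0.16 (R 4.3.3). Log2 ratios had 0.5 added as prior count, and their 95% intervals come from the exact binomial (Clopper-Pearson) interval of the reads of one library among those of both. A count of 3 reads was 0.139, 0.140 and 0.114 normalised CPM at day 0, day 3 and day 5, and a count of 0 allows up to that level. No molecular identifiers are mentioned, and intervals and floors cover counting error only. A gene was counted when at least 1.2-fold different with an interval excluding 1, among genes averaging 50 reads or more. All 10 genes passed that minimum. Alternatives used DESeq2 1.42.0 size factors, library totals, TPM with 0.5 added, other read classes, a prior count of 5, minimum means of none or 200, 1.5-fold, protein-coding genes only, removal of mitochondrial and the 20 most abundant genes, and lowess trends (span 0.3, 3 rounds, statsmodels 0.14.6) on exon length and GC content, known for 99.2% of compared genes. Leaving out YOD1 and using exon-exon reads were chosen after seeing the data. The steps were tested on simulated data. All 10 genes are named, with up to 4 further p97 cofactors per comparison by size of ratio, and others past 1.2-fold, UFD1, BAG6, HSPA5, PFKFB2 and OXSM were added after their values were seen. The genes, lists and the 1.2-fold limit were chosen with earlier results of these data known. Promoter sequences are from RefSeq (GRCh38.p14), and all 10 genes matched by symbol, with 14 windows. Protein sequences were not used here, and 1 listed cofactor is not reported here.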

Additional observations from a re-analysis of the deposited data

Results flagged for a closer look

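Of the 10 genes, 3 had opposite directions at the 2 times on doxycycline, with both counting intervals excluding 0. VCP had log2 ratios of 0.10 at day 3 and -0.21 at day 5 over day 0. UBXN6 had 0.16 at day 3 and -0.11 at day 5, and UBXN4 had -0.10 at day 3 and 0.16 at day 5. VCP had -0.03 at day 3 with the authors' TPM. With exon length and GC trends removed UBXN6 had 0.07 at day 3 and 0.01 at day 5, with both intervals spanning 0, and UBXN4 had 0.06 at day 5. The day 5 ratio of UBXN4 was 0.00 from junction reads, and its day 3 interval reached 0 with DESeq2 size factors. With 1 library per time the difference between times was not tested against variation between cultures.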

How the results depend on the processing

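Counts below are of genes past 1.2-fold. With the authors' TPM the counts and shares rest on the ratio alone, without a counting interval, which is a looser rule. At day 3 over day 0 none was higher under any alternative, and 1 was lower with the authors' TPM (20.8% of compared genes), 1 with uniquely placed reads (10.4%) and 2 with exon-exon reads (13.2%). At day 5 over day 0 the count of 1 higher became 0 with the authors' TPM, uniquely placed reads, trends removed, 1.5-fold, YOD1 left out and exon-exon reads, while the count of 0 lower became 1 with uniquely placed reads and 2 with exon-exon reads (17.6% of compared genes). At day 5 over day 3 the 2 higher became 1 with DESeq2 size factors, uniquely placed reads, a prior count of 5, mitochondrial and abundant genes left out, and YOD1 left out, 0 with trends removed, 1.5-fold and exon-exon reads, and 3 with the authors' TPM (FAF2, UBXN4 and YOD1). The 2 lower became 0 with library totals, the authors' TPM, trends removed and 1.5-fold. Of compared genes, 5.65% were then lower and 19.7% higher with library totals, 5.66% and 23.1% with the authors' TPM, and 5.99% and 7.7% with trends removed. The median log2 ratio of the 10 genes moved to -0.0639 (TPM, day 3 over day 0), -0.0828 (exon-exon reads, day 5 over day 0), and 0.0819 and 0.11 (library totals and TPM, day 5 over day 3). Minimum means of none or 200 reads and protein-coding genes only changed none of these counts or medians. The median of all compared genes moved by under 0.1 in each case. YOD1 reversed with uniquely placed reads, to -1.14 at day 5 over day 0 and -0.48 over day 3, and with exon-exon reads, to -1.17 and -0.56. For day 5 over day 3 both intervals spanned 0, at [-1.14 to 0.17] for uniquely placed and [-1.22 to 0.07] for exon-exon reads. The cause of the change of sign was not tested. No paired analysis was possible because each time has 1 library, which also leaves no replicate to omit.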

Other observations

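STUB1, UBXN1 and SELENOS were among the listed p97 cofactors at least 1.2-fold lower for day 5 over day 3, with log2 ratios of -0.26, -0.34 and -0.29. STUB1 is a ubiquitin ligase that works with chaperones, and UBXN1 is a soluble UBX protein. BAG6, a chaperone that holds extracted proteins in solution, had -0.01 at day 3 and -0.09 at day 5 over day 0.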
